A study of Mus musculus with 8 samples.

Results

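The transcripts described here are those of 10 genes that the transcription factor p53 is known to activate: Cdkn1a, Mdm2, Ccng1, Trp53inp1, Bbc3, Bax, Gadd45a, Sesn2, Aen and Phlda3. They were taken by name, as a panel that reads out cell stress after vector injection, and are 10 of the 24498 genes in the deposited table. The mice were C57BL/6J males of 10 to 12 weeks, and all had received an adeno-associated virus (AAV2/9) in the dorsal hippocampus, the region from which RNA was taken. Mice with the control vector, labelled WT, received AAV2/9 with EGFP under the CMV promoter and no hairpin. Mice with the hairpin vector, labelled ACSS2 KD, received AAV2/9 with the same EGFP cassette and, under the U6 promoter, a short hairpin that targets Acss2, which converts acetate to acetyl-CoA. From 3 weeks after injection, trained mice explored 3 objects in 3 trials of 6 min and were killed 30 min afterwards, and untrained mice were kept in the home cage. Each of the 4 groups has 2 libraries.

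All 8 libraries therefore come from animals with AAV2/9, surgery and EGFP, and no group without virus and no group with an unrelated hairpin is analysed here. A difference between the vectors takes in the U6 cassette, the hairpin and the loss of Acss2 at once, and these cannot be told apart. The labels do not state whether a library is 1 mouse or a pool, so the p-values measure only how far libraries spread, which may be partly technical.

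In unstressed cells p53 is kept scarce because Mdm2, itself a product of p53 activity, tags it for degradation. DNA damage and other stresses release p53 from Mdm2, and p53 then binds pairs of a short half-site near its target genes and raises their transcription. Cdkn1a (p21) halts the cell cycle by blocking cyclin-dependent kinases, Bbc3 (PUMA) and Bax start apoptosis at the mitochondrion, and Sesn2 restrains mTORC1 signalling under stress. In neurons, which do not divide, Cdkn1a is known as a gene induced by damage and by several kinds of cell stress, and it is also expressed in glia.

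The p53 half-site is a run of purines, a C, a pair of A or T bases, a G and a run of pyrimidines, and its reverse complement has the same form, so 1 search reads both strands. It was looked for in the RefSeq promoter windows (GRCm38.p6, from 250 bases before to 50 after the transcription start), which 9 of the 10 genes have (13 windows). At least 1 half-site lay in 7 of the 13 windows, those of 6 genes, and in 2745 of 32851 windows of all genes (8.36%). The 250 bases before the first Cdkn1a start are shown because this gene had the largest vector difference of the panel and is the only one of the 9 with 2 half-sites at most 13 bases apart (in capitals), a pair that 24 of all windows hold (0.0731%). They lie on the plus strand at chr17:29090729-29090978.
Cdkn1a: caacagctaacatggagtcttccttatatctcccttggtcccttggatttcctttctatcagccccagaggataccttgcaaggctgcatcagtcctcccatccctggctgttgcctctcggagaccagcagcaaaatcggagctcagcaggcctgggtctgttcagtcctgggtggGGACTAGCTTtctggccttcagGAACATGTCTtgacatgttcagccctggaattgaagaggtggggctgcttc
The half-sites begin 73 and 51 bases before this start, with 12 bases between them, and the 10 bases right after the second miss the half-site at 1 position. They lie 2863 and 2841 bases before the second RefSeq start of the gene, whose own window has none.

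Single half-sites (in capitals, each in a window of 30 bases on the gene's strand) were found for 5 other genes, shown for comparison with the Cdkn1a pair. They lie at chr6:67037428-67037457 (Gadd45a), chr7:45467080-45467109 (Bax), chr7:78895927-78895956 (Aen), chr10:117710925-117710954 (Mdm2) and chr11:40755452-40755481 (Ccng1).
Gadd45a: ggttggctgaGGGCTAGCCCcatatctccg
Bax: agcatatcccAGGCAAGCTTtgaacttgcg
Aen: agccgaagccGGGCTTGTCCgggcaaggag
Mdm2: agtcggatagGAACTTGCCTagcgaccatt
Ccng1: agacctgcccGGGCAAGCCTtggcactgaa
The Gadd45a half-site begins 40 bases before the start, those of Mdm2, Ccng1 and Bax 186, 185 and 201 bases before it, and that of Aen 11 bases after its first start. The window of the second Aen start holds this same site, 121 bases before that start. The windows of Bbc3, Sesn2 and Phlda3 held no match, which says only that these letters are not in them. A match is a description of letters and not of p53 binding, which these data do not measure.

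**Figure D1:**
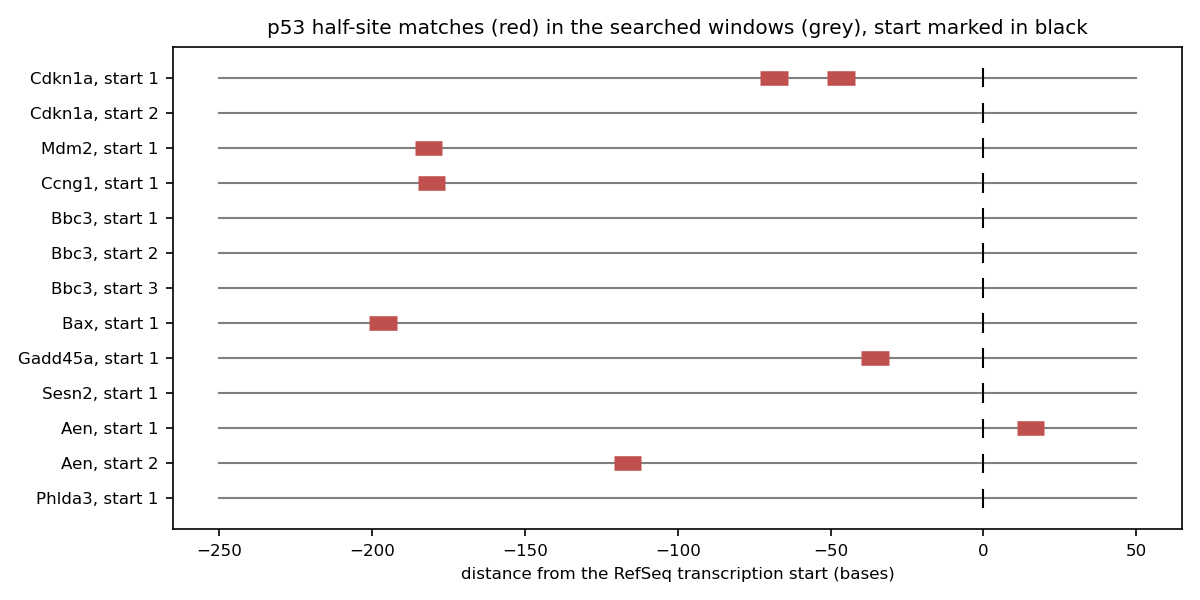
Position of each p53 half-site match (red) in the RefSeq promoter windows of 9 panel genes, with distance from the transcription start in bases on the horizontal axis and 1 row per start. The first Cdkn1a start has a pair of matches at -73 and -51, Mdm2, Ccng1, Bax, Gadd45a and both Aen starts have 1 each, and the other rows have none. The match is the same site for both Aen starts, whose windows overlap.

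Values are normalized read counts, the deposited reads per gene divided by 1 size factor per library, and libraries are named by the end of their column name. Reads in genes came to between 6537749 and 9863728 in 6 libraries, but to 272456 in KD.255 (hairpin, untrained) and 1484318 in KD.251 (hairpin, trained). In those 2 shallow libraries 1 read is worth 15.6 and 2.88 normalized counts, against 0.444 to 0.659 in the others, and the floor of 3 reads lies at 46.7 and 8.65 normalized counts, against 1.33 to 1.98. The targeted gene Acss2 had 58.2, 82.0, 87.4 and 67.5 normalized counts in the control libraries and 25.6, 57.7, 25.0 and 15.6 in the hairpin libraries KD.249, KD.251, KD.253 and KD.255. It was thus lower in all 4 hairpin libraries, by a log2 difference of -1.37 (SE 0.33, limma adjusted p = 0.333, DESeq2 adjusted p = 0.0144), with KD.251 (20 reads) just under the lowest control and KD.255 at 1 read. None of 16 markers of pyramidal and granule neurons was at 0 in any library, and their summed level was 52149 to 66030 with the control vector and 47900 to 59205 with the hairpin vector. Camk2a, Snap25 and Nrgn make up most of this sum. Averaged over training, 12 of the 16 had a vector difference below 0 (median -0.14), beside 7068 of 12681 tested genes. In untrained mice 15 were below 0 (median -0.36), beside 7003, and in trained mice 5 (median 0.11), beside 6430. None of the 16 passed limma or DESeq2 in these comparisons.

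Cdkn1a, on chromosome 17 (29090976 to 29100727, plus strand, GRCm38), was higher in every hairpin library than in every control library. It stood at 20.9 and 16.4 normalized counts in untrained controls (eGFP.254 and eGFP.268) and at 36.2 and 24.9 in trained controls (eGFP.250 and eGFP.266). Untrained hairpin libraries had 56.7 (KD.253) and 77.8 (KD.255), and trained hairpin libraries had 90.6 (KD.249) and 37.5 (KD.251). The groups did not overlap, but the gap between them was narrow: the lowest hairpin value, in shallow KD.251, was 37.5 and the highest control value 36.2.

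The mean was 24.6 ± 8.47 normalized counts (SD, n = 4) with the control vector and 65.6 ± 23.4 (SD, n = 4) with the hairpin vector. The log2 difference, averaged over training on log2(value + 1), was 1.36 (SE 0.35, 95% interval 0.58 to 2.14), a 2.57-fold higher level (1.49 to 4.42). The value in KD.255 rests on 5 reads, for which the exact 95% Poisson interval, covering counting error only, is 25.2 to 181 normalized counts. That in KD.251 rests on 13 reads, with an interval of 20 to 64.1, so its distance from the controls was not resolved at this depth, and that of KD.253 (45.3 to 70.0) met the upper end of that of the highest control, eGFP.250 (28.2 to 45.7). Only the interval of KD.249, with a lower end of 77.7, lay clear of those of all 4 controls.

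Whether Cdkn1a passed an adjusted p of 0.05 over all 12681 genes tested depended on the test. It did not pass in limma, the main test (rank 109 by p, adjusted p = 0.371), nor in edgeR's quasi-likelihood test (log2 difference 1.41, adjusted p = 0.0522). It passed in DESeq2 (1.41, adjusted p = 0.00545) and in limma-voom (1.47, adjusted p = 0.0278). These calls stand against backgrounds of 0.103% of tested genes called by limma, 0.962% by edgeR, 1.54% by DESeq2 and 1.24% by limma-voom. In limma it passed without KD.251 (1.70, adjusted p = 0.0386) and without both shallow libraries (1.56, adjusted p = 0.0162). The difference was above 0 in all 15 alternatives that test the gene, from 1.15 to 1.70, with adjusted p from 0.00545 to 0.962. Column names with the 2 highest library numbers, eGFP.266 and eGFP.268, belong to controls only. Among the other 6 libraries the controls had 20.9 and 36.2 and the hairpin libraries 37.5 to 90.6, and with the set of numbers as a term the difference was 1.15 (limma adjusted p = 0.857).

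**Figure D2:**
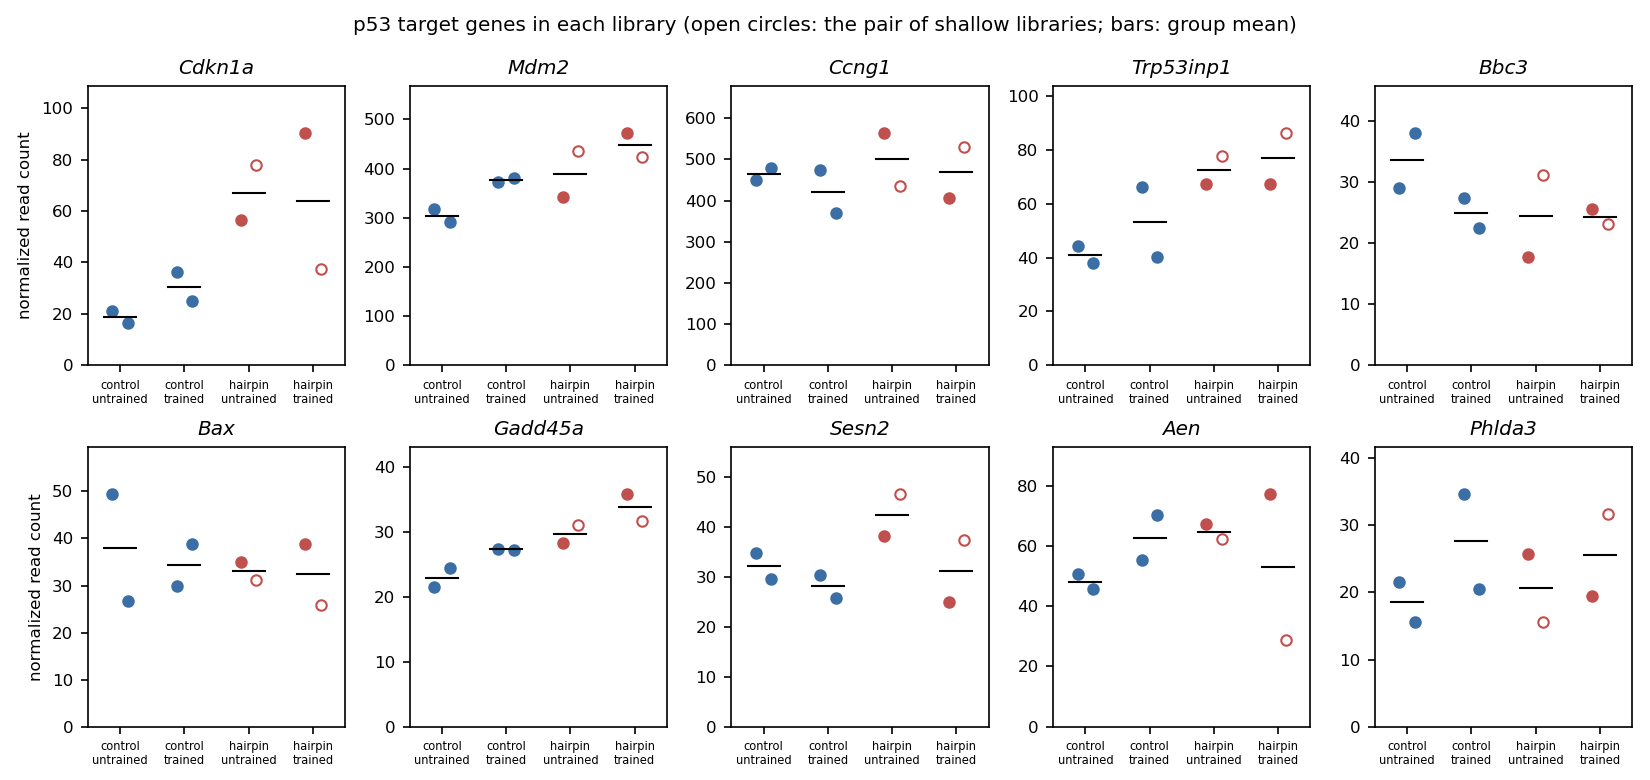
Normalized read counts of the 10 panel genes (vertical axes, each from 0) in the 2 libraries of each of the 4 groups (horizontal axes), with control vector in blue, hairpin vector in red, open circles for the shallow libraries KD.255 and KD.251 and bars for group means. Cdkn1a, Trp53inp1 and Gadd45a do not overlap between the vectors, while the other 7 genes do.

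The other panel genes with a part in cell cycle arrest differed less. Gadd45a, whose product binds PCNA and holds cells at checkpoints (chromosome 6, 67035096 to 67037457, minus strand), had 21.5 and 24.4 normalized counts in untrained and 27.4 and 27.3 in trained controls. With the hairpin it had 28.3 and 31.1 untrained and 35.8 and 31.7 trained. The groups did not overlap, but by less than 1 normalized count (27.4 against 28.3), and 31.1 is 2 reads in KD.255, under the floor. The log2 difference was 0.33 (SE 0.26, 95% interval -0.26 to 0.92, limma adjusted p = 0.873). A gene annotated on the opposite strand, E230016M11Rik, overlaps part of Gadd45a and has its own entry in the table. The strand setting of the counting is not given in the sources used here, so the assignment of reads in the stretch they share is uncertain. Annotated genes also overlap Cdkn1a (AC167363.2, opposite strand), Bax (Gm45808, same strand) and Sesn2 (Gm12981, same strand), and none of these has an entry in the table.

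Ccng1 encodes cyclin G1, a p53 target that acts with a phosphatase on Mdm2 (chromosome 11, 40748552 to 40755311, minus strand), and was the most abundant of the panel. Controls had 451 and 480 normalized counts untrained and 474 and 369 trained, and hairpin libraries 565 and 435 untrained and 407 and 531 trained. These values overlapped, with a log2 difference of 0.12 (SE 0.15, 95% interval -0.22 to 0.46, limma adjusted p = 0.903). With 772 or more reads in each deeper library, the upper end of this interval lay below the Cdkn1a difference of 1.36.

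Mdm2, the ubiquitin ligase that feeds back on p53 (chromosome 10, 117688875 to 117710758, minus strand), was higher with the hairpin vector within each training state by a modest amount. It had 317 and 291 normalized counts in untrained controls and 342 and 435 in untrained hairpin libraries. After training it had 373 and 381 in controls and 473 and 424 with the hairpin. Within each state the vectors did not overlap, and over both states they did, since trained controls exceeded the untrained hairpin library KD.253. The mean was 341 ± 43.6 (SD, n = 4) against 419 ± 55.3 (SD, n = 4). Its log2 difference of 0.30 (SE 0.13, 95% interval 0.0014 to 0.59) did not pass, with an adjusted p of 0.873 in limma, 0.672 in edgeR and 0.812 in DESeq2.

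Of the 5 panel genes that act in apoptosis, Trp53inp1 had the highest vector difference. Its product, a nuclear protein that p53 induces and that in turn promotes p53 activity and autophagy, is encoded on chromosome 4 (11156431 to 11174379, plus strand). Controls had 44.2 and 38.1 normalized counts untrained and 66.2 and 40.2 trained, and hairpin libraries 67.2 and 77.8 untrained and 67.6 and 86.5 trained. The groups did not overlap, with 1 control library, eGFP.250, at 66.2 close under the lowest hairpin value of 67.2 and the other 3 at 44.2 or less. The value of 77.8 in KD.255 rests on 5 reads, each worth 15.6 normalized counts, so its place above eGFP.250 was not resolved at this depth. The mean was 47.2 ± 12.9 (SD, n = 4) against 74.8 ± 9.24 (SD, n = 4), and the log2 difference 0.68 (SE 0.23, 95% interval 0.17 to 1.19), a 1.60-fold higher level. It did not pass (adjusted p = 0.715 in limma, 0.448 in edgeR, 0.536 in DESeq2), and with the set of library numbers as a term the difference was 0.45.

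The remaining apoptosis genes gave overlapping values. Bbc3, which frees Bax by binding its inhibitors (chromosome 7, 16308393 to 16318205, plus strand), had 22.5 to 38.1 normalized counts in controls and 17.8 to 31.1 with the hairpin, a log2 difference of -0.26 (SE 0.32, 95% interval -0.96 to 0.45). Bax, which opens the outer mitochondrial membrane (chromosome 7, 45461697 to 45466898, minus strand), had 26.6 to 49.4 in controls and 26.0 to 38.9 with the hairpin, a difference of -0.12 (SE 0.30, 95% interval -0.78 to 0.54). The hairpin mean of each of these initiators of p53-dependent cell death was below its control mean (24.4 against 29.3 for Bbc3, 32.7 against 36.2 for Bax), by less than 1 SD of the controls. Aen, a nuclease of apoptotic DNA breakdown (chromosome 7, 78895854 to 78911209, plus strand), had 45.7 to 70.3 in controls and 28.8 to 77.3 with the hairpin, a difference of 0.01 (SE 0.32, 95% interval -0.71 to 0.74). Its lowest value, 28.8, came from 10 reads in KD.251, and leaving that library out gave 0.37. Phlda3, an inhibitor of Akt signalling (chromosome 1, 135766119 to 135769136, plus strand), had 15.5 to 34.6 in controls and 15.6 to 31.7 with the hairpin, a difference of 0.01 (SE 0.36, 95% interval -0.80 to 0.83). The limma adjusted p of these 4 genes was 0.903 for Bbc3, 0.969 for Bax and 0.998 for Aen and Phlda3. Their values in KD.255 rest on 1 to 4 reads, and the sign of the difference of Bax turned in 3 of its 15 alternatives, that of Aen in 5 of 16 and that of Phlda3 in 5 of 15.

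Sesn2, the panel's stress-responsive brake on mTORC1 (chromosome 4, 132492032 to 132510501, minus strand), had 34.9 and 29.7 normalized counts in untrained and 30.5 and 25.8 in trained controls. With the hairpin it had 38.2 and 46.7 untrained and 25.1 and 37.5 trained. The trained hairpin library KD.249 had the lowest value of all 8, so the groups overlapped, and the log2 difference was 0.25 (SE 0.27, 95% interval -0.35 to 0.85, limma adjusted p = 0.879). Without both shallow libraries it was 0.04.

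Over the panel, the averaged vector difference was above 0 for 8 of the 10 genes, where 44.3% of all tested genes were. Among the 8, Aen and Phlda3 lay at only 0.01. The panel median was 0.19 (0.10 with the set of library numbers as a term) against -0.035 over all tested genes. No gene of the panel passed limma or edgeR, and 1, Cdkn1a, passed DESeq2 and limma-voom. At an unadjusted limma p under 0.05 there were 3 (Cdkn1a, Trp53inp1 and Mdm2), beside a background of 5.59%. The vectors did not overlap for 3 genes, each higher with the hairpin (Cdkn1a, Trp53inp1 and Gadd45a), where 2.28% of tested genes were higher without overlap and 1.98% lower. The same 3 did not overlap without the shallow libraries, where the background was 10.0%. The summed level of the panel was 1006 to 1155 normalized counts in controls and 1244 to 1261 with the hairpin, a sum that Ccng1 and Mdm2 make up for the most part. In bulk tissue, fewer cells of a type and less RNA per cell cannot be told apart for any of these genes.

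**Figure D3:**
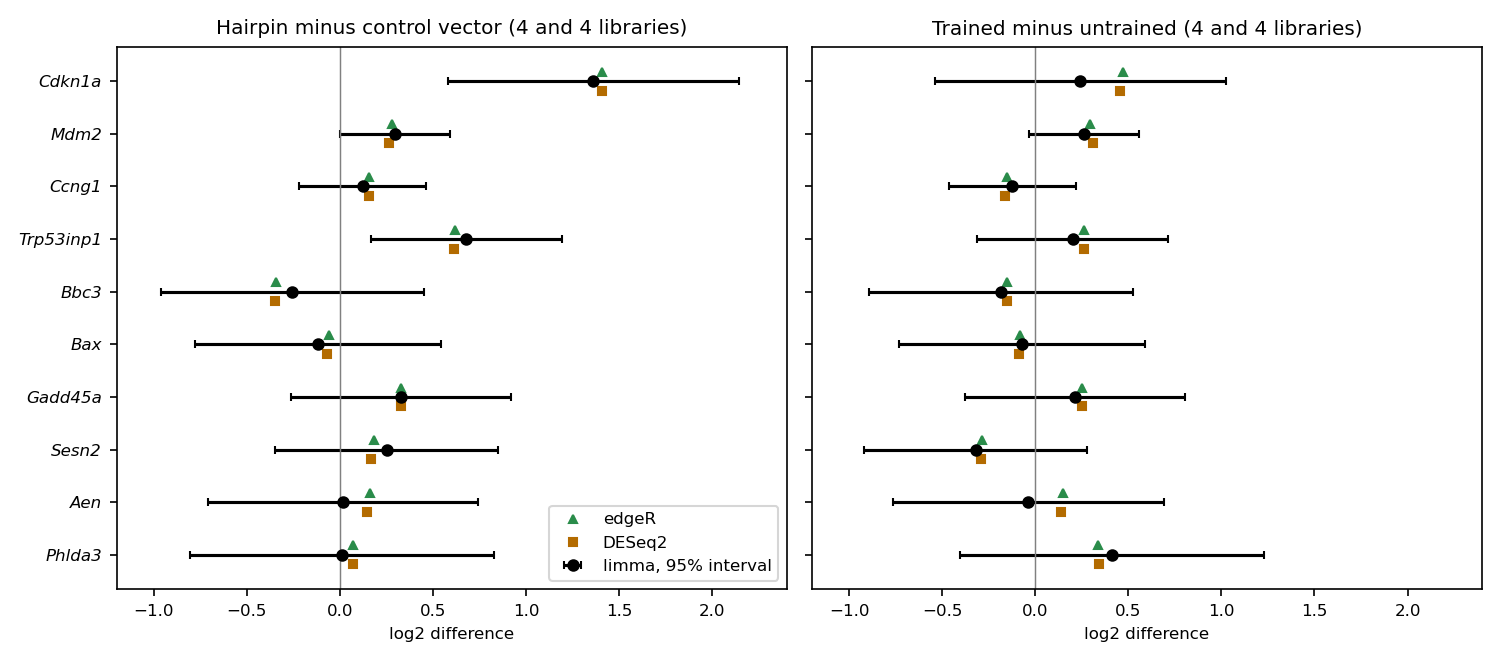
Log2 differences of the 10 panel genes between hairpin and control vector (left) and between trained and untrained mice (right), with limma estimates and 95% intervals as black circles and bars and edgeR and DESeq2 estimates as coloured symbols. On the left the interval lies above 0 for Cdkn1a (0.58 to 2.14), Trp53inp1 (0.17 to 1.19) and, by a hair, Mdm2, and on the right every interval includes 0.

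The vector difference was then taken within each training state. In untrained mice Cdkn1a differed by 1.79 (SE 0.49, 95% interval 0.68 to 2.89) with an adjusted p of 0.816 in limma, 0.381 in edgeR and 0.475 in DESeq2. In trained mice it differed by 0.94 (SE 0.49, 95% interval -0.17 to 2.04, limma adjusted p = 1). The trained value rested on which hairpin library was kept: it was 0.31 without KD.249 and 1.56 without KD.251. The interaction, trained minus untrained vector difference, was -0.85 (SE 0.69, 95% interval -2.41 to 0.71, limma adjusted p = 1), and without both shallow libraries it was 0.00039, so a dependence of the Cdkn1a difference on training was not resolved.

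The interactions of the other 9 panel genes lay between -0.81 and 0.45. Without training Trp53inp1 differed by 0.80 (SE 0.35), and with it by 0.56 (SE 0.35). For Mdm2 these were 0.34 (SE 0.21) and 0.25 (SE 0.21). Aen differed by 0.42 (SE 0.45) without training and by -0.39 (SE 0.45) with it, an interaction of -0.81 (SE 0.63, 95% interval -2.24 to 0.62) that was -0.12 without KD.251. No panel gene passed limma, edgeR or DESeq2 in untrained mice (background 0.0%, 0.181% and 0.434%), in trained mice (0.00789%, 0.0315% and 0.26%) or for the interaction (0.0% by each). At an unadjusted limma p under 0.05 there were 2 in untrained mice, Cdkn1a and Trp53inp1 (background 4.5%), and none in trained mice (2.36%) or for the interaction (0.883%). Without overlap and higher with the hairpin were 6 of 10 in untrained mice and 4 of 10 in trained mice, each beside 14.4% of tested genes, and this asks only that 2 libraries exceed 2 others. In untrained mice KD.255 rests on 2 reads for Gadd45a, 3 for Sesn2, 4 for Aen and 5 for Cdkn1a and Trp53inp1. With each read worth 15.6 normalized counts, the place of KD.255 above the controls was not resolved for these genes.

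Training left the panel without a call. Averaged over the vectors, 5 of 10 genes were above 0, beside 55.1% of tested genes, with a median of 0.082 against 0.031. None passed limma or edgeR, which called 0.0% of tested genes, or DESeq2, which called 0.15% of the genes to which it gave an adjusted p. At an unadjusted limma p under 0.05 there was also none, where 4.86% of all tested genes were. Mdm2 came nearest, at 0.26 (SE 0.13, limma adjusted p = 0.873), and both trained libraries exceeded both untrained libraries with the control vector but not with the hairpin. Cdkn1a differed by 0.24 (SE 0.35, 95% interval -0.54 to 1.03). In control mice both of its trained values (36.2 and 24.9) exceeded both untrained ones (20.9 and 16.4), while the trained hairpin libraries held both the highest and the lowest hairpin value. The 36.2 is that of eGFP.250, whose choroid plexus markers summed to 71595 normalized counts, against 711 to 18563 in the other controls. Without eGFP.250 the Cdkn1a training difference was 0.052 and its vector difference 1.55. The part of this tissue in the Cdkn1a values was not tested. Phlda3 had the largest training difference, 0.41 (SE 0.36), and Sesn2 the lowest, -0.32 (SE 0.27).

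Levels between genes were compared per kilobase of annotated exon. Averaged over all 8 libraries, Ccng1 (132 normalized counts per kb) and Mdm2 (74.7) stood far above the rest. Bax followed at 21.9, Gadd45a at 16.1, Phlda3 at 14.8, Cdkn1a at 12.7 and Bbc3 at 12.6, with Aen (9.86), Sesn2 (9.66) and Trp53inp1 (9.42) at the low end. With the control vector Cdkn1a had 6.92 per kb, the lowest control mean of the panel but close to Trp53inp1 (7.29) and Sesn2 (8.70). With the hairpin vector Cdkn1a had 18.5 per kb. The genes did not vary as 1 block: over the 8 libraries the median Pearson correlation of the 45 gene pairs on log2(value + 1) was -0.00047, from -0.55 to 0.90. All of these correlations share the same libraries and their depths.

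The gene of p53 itself did not differ beyond its spread. Trp53 (chromosome 11, 69580359 to 69591873, plus strand) had 110, 50.6, 51.2 and 40.7 normalized counts in the controls eGFP.254, eGFP.268, eGFP.250 and eGFP.266. In the hairpin libraries KD.249, KD.251, KD.253 and KD.255 it had 65.5, 54.8, 127 and 62.2. One untrained library of each vector, eGFP.254 and KD.253, was high, and the others lay between 40.7 and 65.5. The vector difference was 0.32 (SE 0.31, limma adjusted p = 0.875) and the training difference -0.63 (SE 0.31, limma adjusted p = 0.873). p53 is controlled mainly through its protein, which RNA does not show.

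Among 21 genes for p53, its relatives and its regulators, 17 were tested, 11 with a difference above 0 and 6 below, with a median of 0.053, and none passed limma, edgeR, DESeq2 or limma-voom, or an unadjusted limma p under 0.05. Mdm4, the partner of Mdm2 that holds p53 inactive, had 478 ± 51.7 (SD, n = 4) normalized counts with the control vector and 568 ± 16.5 (SD, n = 4) with the hairpin vector. The vectors did not overlap, but the gap was narrow (429 to 542 against 544 to 581), with as few as 37 reads in a hairpin library. The log2 difference of Mdm4 was 0.25 (SE 0.13, limma adjusted p = 0.873). Hipk2, a kinase that phosphorylates p53, averaged 522 in controls and 668 with the hairpin (0.36, SE 0.20). At the lower end were Trp73, a p53 relative, at -0.22 (SE 0.57) and Ppp1r13l, an inhibitor of p53, at -1.74 (SE 0.88), the latter with 0 reads in KD.255.

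Beyond the panel, 30 further p53 targets were listed, and 23 passed the filter of a mean of at least 10 normalized counts. Their differences were above 0 for 14 and below for 9, with a median of 0.065, and none passed any of the 4 tests or an unadjusted limma p under 0.05, or was without overlap between the vectors. Apaf1, the scaffold of the apoptosome, had the highest, with means of 42.8 and 67.7 (0.62, SE 0.32), followed by Pml, the organizer of PML bodies, with means of 56.7 and 82.9 (0.48, SE 0.30). Perp, a membrane protein of p53-dependent cell death, had the lowest, -0.54 (SE 0.83), and then Psrc1, a spindle protein, -0.36 (SE 0.41). The 7 that were too low to test were Pmaip1, Fas, Tnfrsf10b, Pidd1, Eda2r, Gdf15 and Dram1. The summed level of the 30 genes was 3858 to 4035 normalized counts in controls and 3888 to 4561 with the hairpin.

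Families of the panel genes were read for comparison. Of 7 cyclin-dependent kinase inhibitors, 4 were tested, 1 (Cdkn1a) above 0 and 3 below. Cdkn1b (p27) had means of 123 and 122 (-0.08, SE 0.30) and Cdkn2d 80.3 and 71.8 (-0.15, SE 0.18). Cdkn1c (p57) had 57.6 ± 68.4 (SD, n = 4) in controls, from 10.6 to 158, and 9.83 ± 4.61 (SD, n = 4) with the hairpin. It passed DESeq2 as lower (-2.72, adjusted p = 0.0168) but not limma (-1.80, SE 0.76, adjusted p = 0.873). All 8 choroid plexus markers listed were also below 0, with a median of -1.79 and none passing limma, edgeR or DESeq2. Their summed level was 711 to 71595 normalized counts in controls, with the highest in eGFP.250. With the hairpin it was 1301 to 3508 (0 to 3 of the 8 at 0 in each library). The part of these markers in the Cdkn1c value was not tested.

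Of 15 genes of the BCL2 family, 12 were tested (Bax and Bbc3 among them), 4 above 0 and 8 below, with a median of -0.12, and none passed any of the 4 tests or an unadjusted limma p under 0.05. The anti-apoptotic Bcl2 and Bcl2l1 (BCL-XL) had means of 100 and 114 (0.22, SE 0.25) and of 258 and 235 (-0.14, SE 0.16). The highest differences were those of Bcl2l11 (BIM), 0.48 (SE 0.50), and Mcl1, 0.25 (SE 0.23), and the lowest those of Bok, -1.45 (SE 1.00), with 0 reads in KD.255, and Bad, -0.63 (SE 0.29). Relatives of the other panel genes (cyclin G, Gadd45, sestrin, Phlda and Trp53inp genes, with Mdm genes, 14 of 15 tested, with 6 of the panel among them) were above 0 for 12 and below for 2, with a median of 0.20, and none passed any of the 4 tests (2, Trp53inp1 and Mdm2, at an unadjusted limma p under 0.05). Trp53inp1 was the highest of them and Ccng2 second, at 0.36 (SE 0.17), while Phlda1 had -0.22 (SE 0.19) and Gadd45b, with 0 reads in KD.255, -0.74 (SE 0.94).

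**Figure D4:**
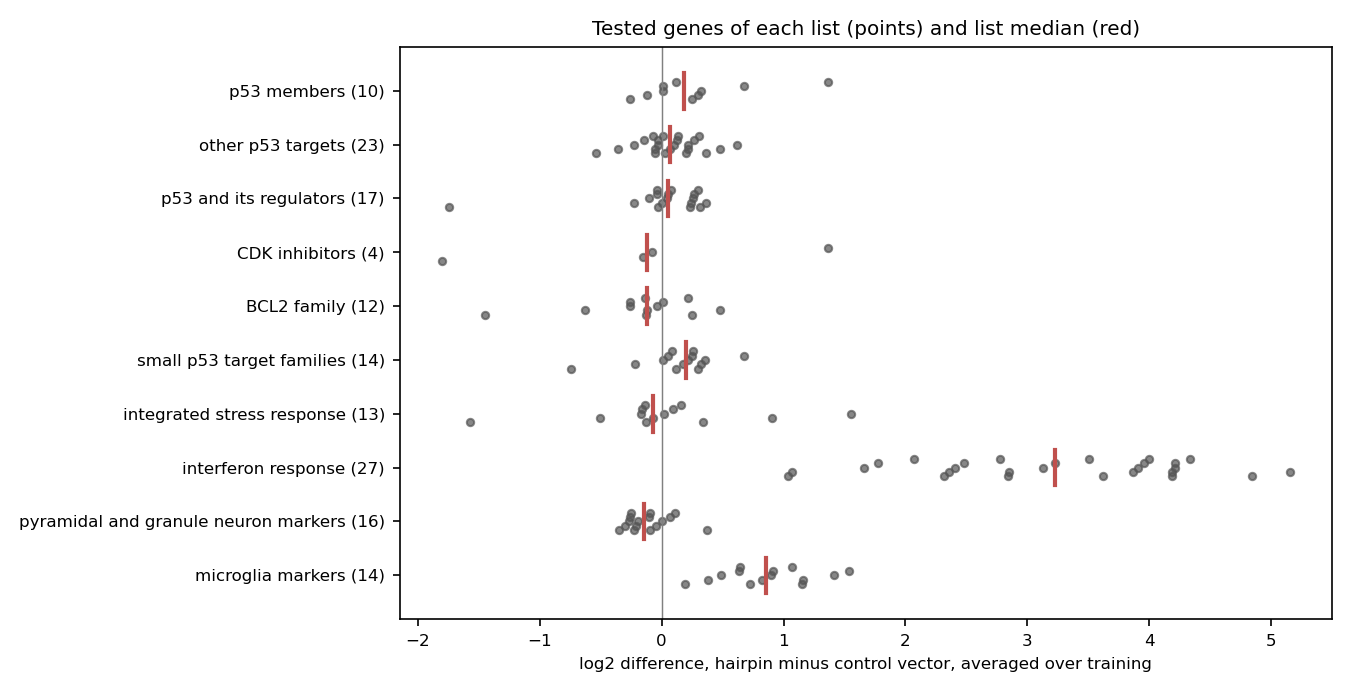
Log2 vector difference (horizontal axis, hairpin minus control, averaged over training) of every tested gene of 10 gene lists (points) with the list median (red bar). The panel has a median of 0.19, the further p53 targets 0.065 and the BCL2 family -0.12, while the interferon list has 3.23 and the microglia list 0.86.

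A second stress pathway, the integrated stress response, by which cells cut translation and induce Atf4 targets, was listed for comparison. Of its 15 genes, 13 were tested, 6 above 0 and 7 below, with a median of -0.071. Atf3, a transcription factor that both this response and p53 are known to induce, had 8.03 ± 4.59 (SD, n = 4) normalized counts in controls and 24.1 ± 6.49 (SD, n = 4) with the hairpin, without overlap. Its difference of 1.55 (SE 0.47) passed DESeq2 (adjusted p = 0.029) and limma-voom (0.026), but not edgeR (0.0522) or limma (0.583). Nupr1, a small stress-induced chromatin protein, had means of 27.2 and 54.2, with overlap between the vectors. Its difference of 0.90 (SE 0.31) passed DESeq2 (adjusted p = 0.0372) and limma-voom (0.0319), but not edgeR or limma (0.715 in limma). The lowest were Shmt2, a mitochondrial enzyme of serine metabolism, -1.57 (SE 1.07), with 0 reads in KD.255, and Ddit4, also known as a p53 target, -0.51 (SE 0.34).

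Genes of the interferon response, which viral nucleic acid and cytokines induce, and of microglia stood higher with the hairpin vector, and their values are set beside those of Cdkn1a. All 27 tested of 28 interferon response genes were above 0, from 1.04 to 5.15 with a median of 3.23. Of these, 10 passed limma, 24 edgeR and 25 DESeq2, beside 0.103%, 0.962% and 1.54% of all tested genes. Among those that passed at least 1 of these tests were Ifit1, Ifit2, Ifit3, Ifit3b, Irf7, Irf9, Stat2, Isg15, Oasl2, Oas1a, Oas2, Rsad2, Ddx60, Ddx58, Ifih1, Mx1, Mx2, Usp18, Ifitm3, Rtp4, Zbp1, Cxcl10, Ccl5 and Xaf1. Their summed level was 664 to 916 normalized counts in controls and 1990 to 9214 with the hairpin, with 0 to 2 of the genes at 0 in each library. Relative to the control mean, the list median per hairpin library was 4.23 in KD.253, 3.38 in KD.255, 4.17 in KD.249 and 1.71 in KD.251. KD.251 thus had the lowest interferon median, the lowest Cdkn1a value (on 13 reads) and the highest Acss2 value of the hairpin libraries. The order of the others was not the same: KD.253 had the highest interferon median but a lower Cdkn1a value (56.7) than KD.249 (90.6) or KD.255 (77.8, on 5 reads). A link between these values was not tested.

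All 14 microglia markers were above 0 with a median of 0.86. None passed limma, 3 passed edgeR and 6 passed DESeq2 (Csf1r, C1qa, C1qc, Ctss and Cd68 among them). The backgrounds were 0.103% for limma, 0.962% for edgeR and 1.54% for DESeq2. None of the 14 was at 0 in any library, and their sum was 1478 to 1712 in controls and 2094 to 3678 with the hairpin. In KD.251 their median relative to controls was 0.15, within the range of the controls (-0.23 to 0.15), and in the other hairpin libraries 0.87 to 1.16. Of 12 T cell markers, 9 are in the table and none reached the filter, with sums of 4.07 to 9.82 in controls and 8.65 to 52.7 with the hairpin and 1 to 7 of the 9 at 0 in each library. Gfap, an astrocyte marker (0.96), and Trf, an oligodendrocyte marker (0.86), also passed DESeq2, but no astrocyte or oligodendrocyte marker passed limma. In edgeR and in limma-voom 1 oligodendrocyte marker passed and no astrocyte marker did. The 10 astrocyte markers had a median of -0.0038. All 10 oligodendrocyte markers were above 0, with a median of 0.32 and 3 at an unadjusted limma p under 0.05 (background 5.59%). Their summed level was 10889 to 23511 normalized counts in controls and 17198 to 28068 with the hairpin, with none at 0 in any library. The part of these cell types in the Cdkn1a difference was not tested.

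**Figure D5:**
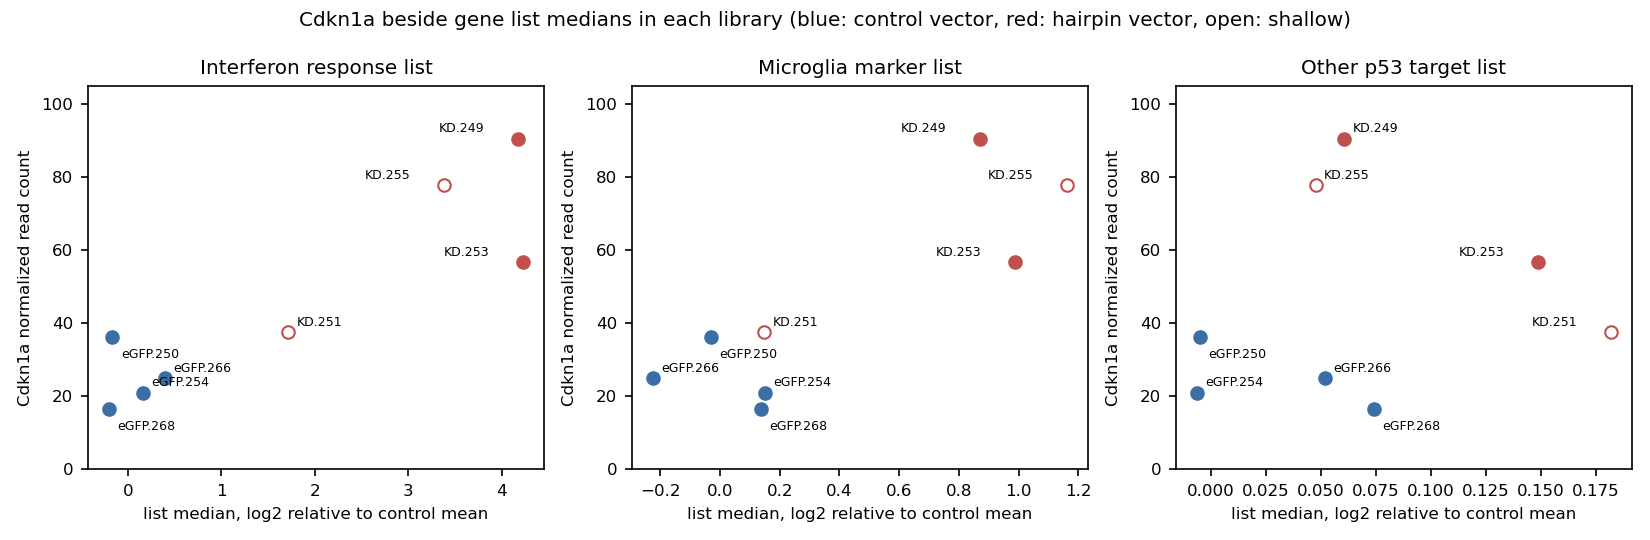
Cdkn1a normalized read count (vertical axis) against the median of 3 gene lists in each library (horizontal axis, log2 relative to the control mean), with control libraries in blue, hairpin libraries in red and the shallow pair open. KD.251 lies lowest of the hairpin libraries in Cdkn1a (37.5), in the interferon list (1.71) and in the microglia list (0.15), while the further p53 targets span less than 0.2 over all 8 libraries.

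By their pattern over the 8 libraries, the tested genes most like Cdkn1a were Parp3 (Pearson r = 0.992 on log2(value + 1)), Unc93b1 (0.972), Elf1 (0.963), Oas1a (0.963) and Spp1 (0.961). Over the 6 deeper libraries they were Irf2 (0.997), Parp3 (0.990), Trim56 (0.987), Zfp551 (0.986) and Lyz2 (0.981). None of the panel was among them, in either set. Nearest of the panel over 8 libraries were Gadd45a (r = 0.840), Mdm2 (0.803) and Trp53inp1 (0.776), and farthest was Bbc3 (-0.363). By r, Gadd45a ranked 167 and Trp53inp1 329 among the tested genes, with Mdm2 between them. Over the 6 deeper libraries the nearest were Gadd45a (r = 0.882, rank 237), Trp53inp1 (0.881, 242), Mdm2 (0.809, 564) and Aen (0.799, 606). The other panel genes lay between -0.595 (Bbc3) and 0.302 (Phlda3) there. These values describe 8 points, or 6 for the deeper libraries, in 2 vector groups, share the same libraries and depths, and carry no test.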

How the data were processed

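Per the labels' protocols, polyadenylated RNA was prepared for sequencing with ScriptSeq v2 and read on a NextSeq 500, giving 8 libraries. The submitters' processing notes name bcl2fastq 02.14.01.07, STAR 2.3.0, HTSeq 0.6.1, DESeq, bedtools and mm10, without the gene annotation or strand setting (not given in the sources used here). Each value of the authors' deposited table is a signal, gene reads over a library's size factor, and 100% of them were whole multiples (relative tolerance 1e-06) of what 1 read is worth in that library, so reads were recovered. The 5 summary entries, of which reads in no feature make up 16.4% to 20.3% of a library, were left out.

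Genes with a mean of at least 10 normalized counts (12681 of 24498) were fitted with limma 3.58.1 (R 4.3.3) with an intensity trend on log2(value + 1), in an additive model of vector and training for the averaged comparisons and a model of 4 groups for the others. The Benjamini-Hochberg threshold was 0.05 over all tested genes in each of 5 comparisons. All 10 members passed the filter. Alternatives were edgeR 4.0.16 (quasi-likelihood, TMM), DESeq2 1.42.0 and limma-voom on recovered reads, pseudocount 5, no filter, a mean of at least 50, the set of library numbers as a term, and libraries left out. The edgeR test called 122 genes for the averaged vector comparison. The fits were tested on simulated data. Groups come from the labels, and columns were matched to groups by vector and training.

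Named are all panel genes, Acss2, Trp53, Mdm4, Cdkn1b, Bcl2, Bcl2l1, each listed gene that passed limma, edgeR or DESeq2 in the averaged vector comparison (some are not reported here by name), the 2 highest and 2 lowest of each p53-related list, and the 5 genes most like Cdkn1a. The panel and the lists were chosen with earlier results of these data known. Coordinates are from GENCODE M21 (GRCm38, the mm10 assembly) and promoters from RefSeq.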

Additional observations from a re-analysis of the deposited data

How the results depend on the processing

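No paired analysis was possible because the column names carry no replicate number. The number of panel genes passing for the averaged vector comparison was 0 in limma and 1 with DESeq2, with limma-voom and without both shallow libraries, and 0 to 1 leaving out each library (1 without KD.251). The 13 genes passing in all became 122 with edgeR, 195 with DESeq2, 157 with limma-voom, 0 with the set of library numbers as a term and 215 without both shallow libraries, and 1 to 102 leaving out each library: 1 or 2 without eGFP.254, eGFP.268, eGFP.250, KD.253 or KD.249, and 102 without KD.251. The panel median of 0.19 was 0.10 with the set term and 0.16 to 0.25 leaving out each library.

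In untrained mice 0 genes passed in limma, 23 with edgeR, 55 with DESeq2, 1 with limma-voom, 1 with pseudocount 5, 62 without both shallow libraries and 0 to 1279 leaving out each library (1279 without KD.253, 21 without KD.249, 26 without KD.251). The panel median there was 0.35, 0.29 without both shallow libraries and 0.28 to 0.40 leaving out each library. In trained mice 1 gene passed in limma, 4 with edgeR, 33 with DESeq2, 0 without a filter, 0 at a mean of at least 50, 2 with the set term, 74 without both shallow libraries and 0 to 11 leaving out each library (11 without KD.251, 0 without KD.249 or any single control library). The panel median was 0.14, 0.20 at a mean of at least 50, 0.047 with the set term, 0.24 without both shallow libraries and 0.045 (without eGFP.266) to 0.25 (without eGFP.250) leaving out each library. For training 0 genes passed in limma and 12 with DESeq2, and the panel median of 0.082 was 0.20 with edgeR, 0.20 with DESeq2, 0.21 with limma-voom, 0.22 without both shallow libraries and 0.012 to 0.20 leaving out each library (0.012 without KD.249, 0.014 without eGFP.268, 0.021 without eGFP.250, 0.20 without KD.251). For the interaction 0 genes passed in limma and 0 to 692 leaving out each library (692 without KD.253), and the panel median of -0.16 was -0.085 without both shallow libraries and -0.36 (without eGFP.254) to -0.087 (without eGFP.268 or eGFP.250) leaving out each library. The cause of these differences was not tested. A mean of at least 50 leaves 4 panel genes and removes Cdkn1a.

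Where a library is left out, the 1 that remains in its group is assumed to vary like the other groups. Depth limits the panel's values in KD.255, where its genes had 1 to 28 reads each, and 8 of the 10 had 5 or fewer.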
